A study of Mus musculus with 16 samples.

Results

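The 16 RNA-seq libraries of this series came from microglia of the olfactory bulb of 2-month-old mice, and each of the 4 groups held replicates numbered 1 to 4. All 16 of the 16 libraries were used here, split by that number: 8 libraries carried replicate numbers 1 or 2 and 8 carried numbers 3 or 4. Each set therefore held 2 libraries of every group, so that genotype and the label f or m were balanced between the sets. WT libraries came from C57BL/6J mice and KI libraries from App NL-G-F mice, in which the mouse's own App gene, under its own promoter, carries a humanised amyloid-beta sequence and the disease changes known as Swedish, Arctic and Iberian. In every group the bulb tissue was digested with papain and the cells were enriched on magnetic beads against CD11b, a surface integrin of microglia that macrophages, monocytes and neutrophils carry too. No treatment was given in the labels. The library names ran from 1 to 8 in the replicates 1 and 2 and from 9 to 16 in the replicates 3 and 4, and the labels did not say what else the replicate numbers stood for (a day, a litter or a preparation). They also did not say which libraries came from separate mice. The study's count of isolated microglia gave n = 8 for each genotype, which equals the libraries per genotype. Its reporting summary named technical replicates for RNA sequencing. The p-values below thus measure only the spread between these libraries, which may in part be technical.

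Microglia are the resident macrophages of the brain. In these cells stimuli such as bacterial products or cytokines release the transcription factor NF-kB from its inhibitors, and NF-kB then switches on cytokine and chemokine genes together with genes of its own inhibitors, which close the loop. Immediate early genes, such as Fos, the Egr genes and the Nr4a genes, encode transcription factors that are transcribed within minutes of a stimulus without new protein synthesis. Heat shock genes encode chaperones that are induced when proteins misfold. The levels of such genes can therefore differ widely between preparations of the same cell type. The comparison of the replicate sets describes differences that the series holds beside its genotype contrast, and what the sets stand for is not known.

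Library totals ranged from 9052930 to 18117300 counts in replicates 1 and 2 and from 9255400 to 14433300 counts in replicates 3 and 4, and did not differ beyond their spread (exact permutation of the set within each group, two-sided, p = 0.284, where the smallest p this design allows was 0.00154). Of 57010 genes in the table, 18227 had at least 5 counts in at least 8 libraries and were tested. Xist, the RNA of the inactive X chromosome, ranged from 547 to 862 CPM (counts scaled by the size of the library) in the libraries labelled f and from 0 to 0.448 CPM in those labelled m, while the Y-linked Ddx3y ranged from 79.9 to 106 CPM in m and from 0 to 0.0669 CPM in f. These levels fitted the labels in every library. The homeostatic microglial list (P2ry12, Tmem119, Cx3cr1 and others) summed to 33944 to 38371 CPM in replicates 1 and 2 and to 32050 to 37248 CPM in replicates 3 and 4, so the labelled cell type carried its defining markers in each set. Replicates 1 and 2 of WT_f stood apart from the other 14 libraries. Hspa1a, the inducible HSP70 chaperone, was at 22.4 and 26.2 CPM in them against 278 to 1174 CPM elsewhere. Omp, the marker of mature olfactory sensory neurons, was at 62.6 and 61.4 CPM against 2.95 to 16.7 CPM. Without its replicates 1 and 2 the WT_f group has no set difference to add, so the count of calls over all groups and the counts of each gene list with calls are also given without WT_f as a whole.

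On average, libraries of a group that shared a replicate set were more alike than libraries of the same group from different sets. For each pair of libraries of a group, the biological coefficient of variation (the spread between libraries beyond counting noise) was computed across genes. It ranged from 4.57% to 15.2% in the 8 pairs within a set, with a median of 9.32%, and from 9.84% to 20.4% in the 16 pairs across the sets, with a median of 12.8%. The pairing by set had the lowest spread of the possible pairings in 4 of 4 groups (mean of 9.42% against 14.2% over the other pairings). With 81 possible combinations of pairings over the groups, the exact permutation test gave a one-sided p of 0.0123, the smallest that these groups allow. The closest pairs were replicates 1 and 2 of KI_m at 4.57% and replicates 1 and 2 of WT_f at 5.37%. Some pairs within a set were further apart than pairs across the sets. In WT_m, replicates 1 and 2 were at 15.2% and replicates 1 and 4 at 9.84%. In KI_m, replicates 3 and 4 were at 13.6% and replicates 2 and 4 at 12.6%. Between different groups, deviations from the group means had a mean correlation of 0.00865 within a set and -0.0089 across the sets (48 pairs each). No pair was identical, and the mean chi-square per gene ranged from 3.41 to 23.5 within a set, above counting noise, so no library appeared to be deposited a second time. These values do not say whether libraries came from separate mice.

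With the 4 groups as a covariate, 130 genes differed between the sets in edgeR's quasi-likelihood test, which was 0.713% of those tested. A call needed an adjusted p (FDR, Benjamini-Hochberg) under 0.1 together with a change of more than 0.5 on the log2 scale in either direction. Most were higher in replicates 3 and 4, with 112 genes (0.614%) against 18 lower (0.0988%). The genes that rose included cytokine and chemokine genes (Tnf, Il1a, Il1b, Ccl2, Ccl3, Ccl4), inhibitors of NF-kB signalling (Nfkbia, Nfkbid, Tnfaip3), the orphan nuclear receptor Nr4a1 and copies of 5S ribosomal RNA. Those that fell included the mitochondrial gene mt-Nd6, the neuronal transcripts Cdr1 and Bc1, and Dio2, which encodes the deiodinase that activates thyroid hormone. At the FDR alone, without the fold threshold, 671 genes passed (3.68%), of which 357 were higher (1.96%) and 314 lower (1.72%), so the excess of higher genes lay among the larger changes. The median log2 fold change over all genes tested was 0.01. The ranges of the 8 and 8 libraries did not overlap for 53 genes (0.291% of those tested), of which 25 were higher and 28 lower in replicates 3 and 4, and 9 of these passed both thresholds.

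**Figure D1:**
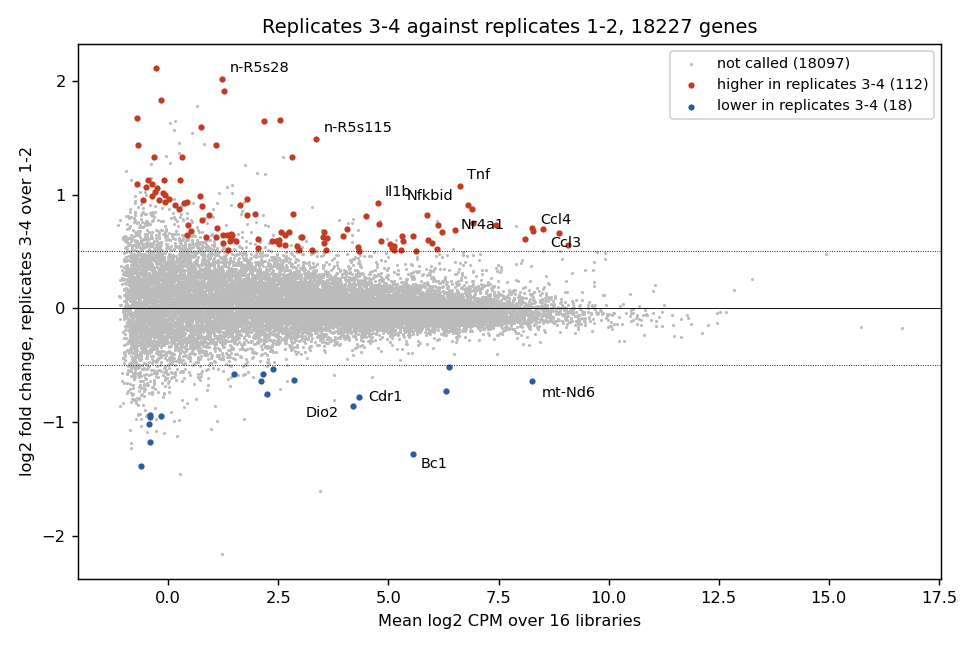
Log2 fold change of replicates 3 and 4 over replicates 1 and 2 (vertical axis) against mean log2 CPM over the 16 libraries (horizontal axis) for the 18227 genes tested, 1 point per gene. The 112 called higher and 18 called lower genes are coloured, and the called genes lie mostly above 0.

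The early inflammatory list holds cytokines, chemokines and their feedback genes, and all 20 of its members were tested. Of these, 11 were called higher and 0 lower, against 0.614% of all genes called higher, and 20 of 20 had a log2 fold change above 0, with a median of 0.60 against 0.01 over all genes. Tnf, the gene of tumour necrosis factor, was at 23, 66.9 and 114 CPM (lowest, median and highest library) in replicates 1 and 2 and at 57.3, 109 and 242 CPM in replicates 3 and 4. The ranges of the sets overlapped because WT libraries were mostly higher than KI libraries in each set, but in every group both libraries of replicates 3 and 4 were above both of replicates 1 and 2. In WT_f, Tnf was at 114 and 93.1 CPM in replicates 1 and 2 and at 242 and 204 CPM in replicates 3 and 4. In WT_m it was at 105 and 102 CPM and then at 109 and 123 CPM. In KI_f it was at 32.8 and 40.7 CPM and then at 57.3 and 86.7 CPM. The difference was widest in KI_m, with 23 and 23.7 CPM in replicates 1 and 2 against 102 and 110 CPM in replicates 3 and 4. The log2 fold change over the groups was 1.07 ± 0.19 (SE, adjusted p = 0.0148 in edgeR). Tnf lies at chr17:35418357-35420983 on the minus strand of GRCm39.

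The chemokine genes of the list followed. Ccl3, which attracts macrophages and T cells, rose by a log2 fold change of 0.70 (adjusted p = 0.0232 in edgeR), from 125, 275 and 505 CPM to 216, 417 and 677 CPM (lowest, median and highest library). Ccl4, a closely related chemokine, rose by 0.68 (adjusted p = 0.0314 in edgeR), from 124, 255 and 341 CPM to 181, 339 and 584 CPM. Ccl2, which draws monocytes through CCR2, had a log2 fold change of 0.67 with an edgeR adjusted p of 0.0503. Among the interleukins, Il1a had 54.4, 124 and 223 CPM in replicates 1 and 2 and 89.4, 191 and 336 CPM in replicates 3 and 4, a log2 fold change of 0.74 (edgeR adjusted p = 0.0362). Il1b was the least certain of the called members, with 11, 17 and 26.4 CPM against 14.6, 32.5 and 58.8 CPM and a log2 fold change of 0.93 ± 0.27 (SE, edgeR adjusted p = 0.0936). In WT_m the Il1b values of the sets overlapped, with 26 and 23.7 CPM in replicates 1 and 2 and 29.9 and 21.4 CPM in replicates 3 and 4. Gpr84, a receptor for medium-chain fatty acids that macrophages induce on activation, was the member whose sets separated fully: 28, 31.7 and 36.3 CPM against 38.8, 44.6 and 60.5 CPM, with a log2 fold change of 0.51 ± 0.06 (SE, edgeR adjusted p = 0.000963). Cd83 (0.71) and Csrnp1 (0.64) were the other called members that are not inhibitors of NF-kB. Icam1, an adhesion molecule, passed the FDR (0.00568) but not the fold threshold at 0.48. Cxcl1, Cxcl2, Cxcl10, Ccl7, Ccl12, Ptgs2, Il6 and Nfkbiz had log2 fold changes of 0.11 to 0.78 and did not pass the test.

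**Figure D2:**
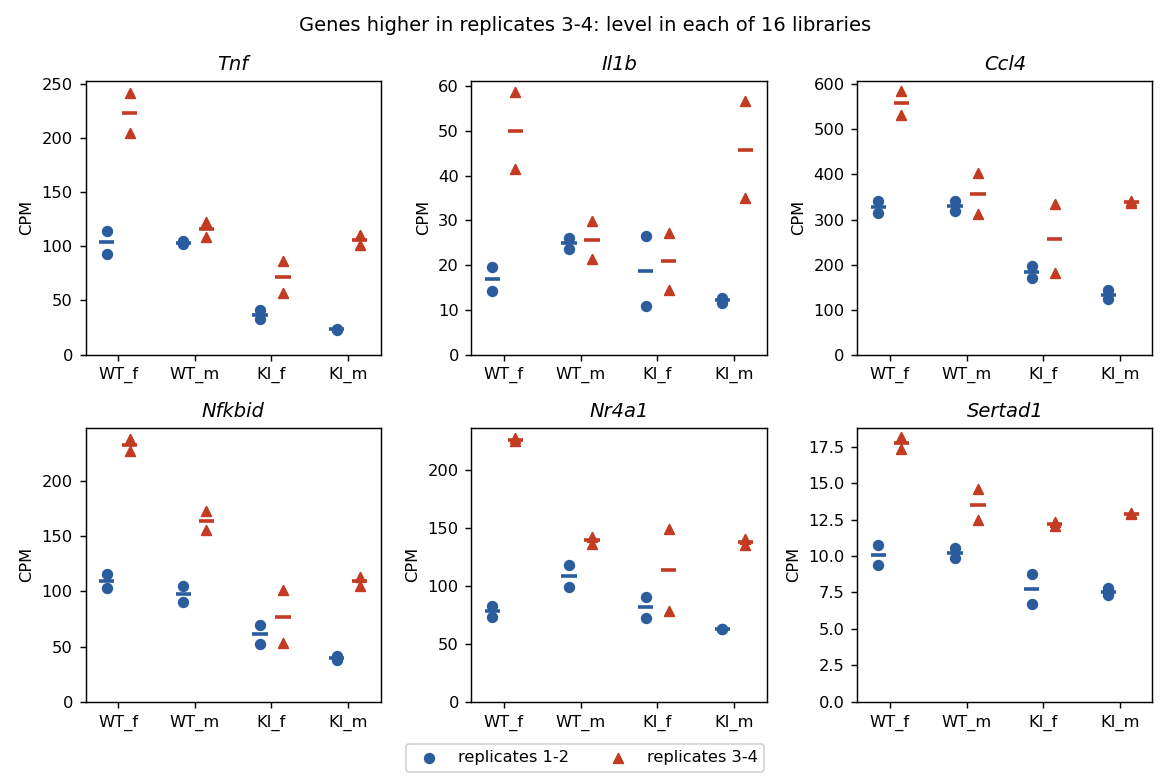
Level in CPM (vertical axes, from 0) of 6 genes called higher in replicates 3 and 4, by group (horizontal axis), with 1 point for each of the 16 libraries and a short line at the mean of the 2 libraries. In Sertad1 every library of replicates 3 and 4 (12.1 to 18.2 CPM) lies above every library of replicates 1 and 2 (6.72 to 10.8 CPM). In Tnf the ranges overlap across groups and separate within each group. Those of Nfkbid overlap across groups and separate within each group except KI_f.

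Among NF-kB members and feedback genes, 5 of 19 were called higher and none lower, against 0.614% and 0.0988% of all genes tested. Of this list 19 of 19 were above 0, against 9538 of 18227 genes tested. This list was chosen after values had been seen and is given as a description. Nfkbid, an inhibitor of the IkB family that acts in the nucleus, was at 37.5, 79.9 and 116 CPM in replicates 1 and 2 and at 52.9, 134 and 238 CPM in replicates 3 and 4. Its values were 116 and 103 CPM against 227 and 238 CPM in WT_f, and 37.5 and 41.5 CPM against 105 and 113 CPM in KI_m. In KI_f, replicate 3 at 52.9 CPM lay within the 52.6 and 69.5 CPM of replicates 1 and 2, and replicate 4 was at 101 CPM. This gave a log2 fold change of 0.91 ± 0.14 (SE, edgeR adjusted p = 0.00568). Nfkbia, the classical IkB-alpha that holds NF-kB in the cytoplasm, rose by 0.56 (edgeR adjusted p = 0.0273), from 248, 437 and 626 CPM to 357, 608 and 930 CPM. Tnfaip3, the deubiquitinase A20 that damps the pathway upstream, had 0.66 (edgeR adjusted p = 0.0677), Zc3h12a, an RNase that degrades cytokine mRNAs, 0.64, and Ier3, a stress-induced NF-kB target, 0.74. The subunit genes Rela, Nfkb1 and Nfkb2 had log2 fold changes of 0.02, 0.02 and 0.06 and did not pass (smallest adjusted p of the 3 = 0.785 in edgeR), while the subunit gene Rel passed the FDR (0.0717) with 0.35. In KI_m taken alone, Rel had 0.89 (edgeR adjusted p = 0.00121) and Nfkb2 had 0.54 (0.019). Without WT_f, 2 of the 19 were called, and without KI_m or KI_f 1 was.

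The promoters of 3 of these feedback genes are shown, chosen because they carry the letters of the NF-kB binding consensus, which stands in capitals. The 300 bases run from upstream to just past the start of the gene on its own strand (RefSeq, build GRCm38.p6, whose coordinates differ from those of the counts). Nfkbia lies at chr12:55492598-55492897 (minus strand), Nfkbid at chr7:30422156-30422455 (plus strand) and Tnfaip3 at chr10:19015361-19015660 (minus strand).
Nfkbia promoter: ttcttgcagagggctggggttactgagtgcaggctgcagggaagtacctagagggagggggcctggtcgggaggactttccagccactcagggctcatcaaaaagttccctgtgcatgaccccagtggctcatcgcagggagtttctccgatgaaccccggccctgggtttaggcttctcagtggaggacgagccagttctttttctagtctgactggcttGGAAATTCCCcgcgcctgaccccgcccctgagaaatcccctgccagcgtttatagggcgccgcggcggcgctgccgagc
Nfkbid promoter: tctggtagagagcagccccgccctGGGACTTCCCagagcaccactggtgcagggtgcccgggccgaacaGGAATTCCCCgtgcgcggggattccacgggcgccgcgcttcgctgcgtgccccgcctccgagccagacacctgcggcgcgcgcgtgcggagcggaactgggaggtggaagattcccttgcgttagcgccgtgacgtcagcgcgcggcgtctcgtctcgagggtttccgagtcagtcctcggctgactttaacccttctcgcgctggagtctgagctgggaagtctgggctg
Tnfaip3 promoter: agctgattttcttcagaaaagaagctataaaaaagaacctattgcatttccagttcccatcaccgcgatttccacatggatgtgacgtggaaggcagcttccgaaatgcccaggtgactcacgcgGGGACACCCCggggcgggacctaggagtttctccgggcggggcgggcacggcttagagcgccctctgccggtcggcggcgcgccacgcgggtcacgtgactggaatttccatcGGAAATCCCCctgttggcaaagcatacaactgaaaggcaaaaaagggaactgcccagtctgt
The consensus matched 1 time in Nfkbia and 2 times in each of Nfkbid and Tnfaip3, searched on both strands with ambiguity letters, so that a site that reads the same both ways counts once. A further Tnfaip3 promoter in the same table had no match. The consensus was present in 2779 of 32851 promoters of the same length (8.46%) and in 1464 of the 11705 tested genes that had a promoter in the table (12.5%). Among the genes called higher it was present in 12 of the 52 with a promoter (23.1%), among the early inflammatory list in 6 of 15 and among the immediate early list in 6 of 21 (28.6%). In the early inflammatory list, the genes with a match were Nfkbia and Tnfaip3, which were called, and Il6, Cxcl1, Cxcl2 and Cxcl10, which were not. The called genes Tnf, Il1a, Il1b, Ccl3, Csrnp1 and Gpr84 had a promoter with no match. It was present in 0 of 9 genes called lower, and these counts are a description with no test.

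Of 25 immediate early genes tested, 2 were called higher and 0 lower, against 0.614% and 0.0988% of all genes tested. In this list 24 of 25 were above 0, against 9538 of 18227 genes tested, and the median log2 fold change was 0.38. The median was 1.10 in KI_m and 0.27 in KI_f but 0.09 in WT_m and -0.11 in WT_f, where 11 of 25 were above 0. Without WT_f 0 were called, and without KI_m 1 was called higher and 1 lower, with 18 of 25 above 0. Nr4a1 was at 62.4, 77.9 and 118 CPM in replicates 1 and 2 and at 78.5, 142 and 228 CPM in replicates 3 and 4, a log2 fold change of 0.88 ± 0.15 (SE, edgeR adjusted p = 0.0118). In WT_f it was at 82.9 and 72.9 CPM against 225 and 228 CPM, the widest gap of the groups. In KI_f, replicate 3 at 78.5 CPM lay between the 72.4 and 90.6 CPM of replicates 1 and 2. Egr2, a zinc finger transcription factor, was called at 0.50 with an edgeR adjusted p of 0.0491. Ier5, Myc and Egr3 passed the FDR with 0.43, 0.43 and 0.46 but not the fold threshold. Fos, the partner of Jun in the AP-1 factor, did not pass, with a log2 fold change of 0.20 ± 0.26 (SE, edgeR adjusted p = 0.772). Its levels were 2456 and 2648 CPM in replicates 1 and 2 of WT_f and 194 to 1330 CPM in the other 14 libraries.

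Several called regulators lay outside these lists. Sertad1, a cofactor of E2F transcription and of cyclin-dependent kinase 4, was at 6.72, 9.07 and 10.8 CPM in replicates 1 and 2 and at 12.1, 12.9 and 18.2 CPM in replicates 3 and 4. The sets did not overlap, and the log2 fold change of 0.67 ± 0.08 (SE) had the smallest adjusted p of the genes that rose (0.000634 in edgeR). Epha2, an ephrin receptor kinase, rose from 33, 47.1 and 71.3 CPM to 56.3, 68.4 and 93.1 CPM, a log2 fold change of 0.60. Tgif1, a repressor of TGF-beta and retinoid signalling, rose by 0.69, and Tob1, an antiproliferative adaptor of mRNA deadenylation, by 0.51. In the list of p53 targets and Gadd45 genes, 3 of 15 were called higher, against 0.614% of all genes tested, and the median was 0.18. Bax, the pore-forming protein of apoptosis, was low in all libraries but separated fully, with 4.05, 4.86 and 5.96 CPM against 6.06, 7.29 and 8.97 CPM and a log2 fold change of 0.55 ± 0.10 (SE, edgeR adjusted p = 0.016). None of this list was called without WT_f, and 1 was without KI_m or KI_f. Gadd45a (0.56) and Gadd45b (0.82) were the others called with all libraries, both stress genes that p53-independent signals induce too. Cdkn1a and Mdm2, the best known p53 targets, had 0.25 and 0.02 and did not pass. Csf1, the microglial growth factor, was the called gene among 21 of the plaque-associated list, at 0.58 (edgeR adjusted p = 0.0414). Mob3c (0.53), Mir99ahg (0.51), Arl5c (0.69), Ankrd16 (0.62) and Fzd5 (0.51) completed the named genes that rose.

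Some annotated copies of 5S ribosomal RNA, a part of the large ribosomal subunit that RNA polymerase III makes, were higher in replicates 3 and 4. The genes are near-identical copies, so counts of single copies are uncertain where a read fits several. Of 72 annotated copies 11 passed the count filter, and none of these 11 had the sequence most common among the copies, so the values describe diverged copies and not 5S RNA as a whole. Of the 11, 6 were called higher, against 0.614% of all genes tested, and 11 were above 0, with a median of 1.54. This list too was chosen after values had been seen. The copy n-R5s115 was at 2.57, 4.74 and 7.74 CPM in replicates 1 and 2 and at 4.77, 12.7 and 26.4 CPM in replicates 3 and 4, a log2 fold change of 1.49 ± 0.30 (SE, edgeR adjusted p = 0.0232). It overlapped through WT_m replicate 4 at 4.77 CPM, while WT_m replicate 3 was the highest library at 26.4 CPM. Summed over the list, the copies gave 7.79 to 26.4 CPM against 15.6 to 122 CPM. The list median was 1.87 in WT_m, 1.68 in WT_f and 1.25 in KI_f, with 11 of 11 above 0 in each, and 0.10 in KI_m, with 6 of 11 above 0. Leaving out 1 library at a time left between 1 and 9 of the copies called, and leaving out WT_f or KI_f left 0.

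Other small RNAs moved less. Among 40 small nucleolar RNAs, which guide the modification of ribosomal RNA, 33 were above 0, with a median of 0.37. The list median was 0.66 in WT_f, 0.65 in WT_m and 0.31 in KI_f but -0.24 in KI_m, where 11 of 40 were above 0. Of the 40, 3 were called higher, against 0.614% of all genes tested. These were Snord15a (0.52, from 45.4, 57.4 and 69 CPM to 57.9, 83 and 101 CPM), Snora73b (0.74) and Snora47 (0.82). None of the list was called without WT_f or without KI_f. By annotated class, 11 of 29 rRNA genes, 4 of 104 snoRNA genes and 5 of 77 snRNA genes were called higher and none lower. Protein-coding genes, of which 13672 were tested, gave 56 higher and 8 lower.

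Of the genes that fell, mt-Nd6 had the smallest adjusted p. It encodes subunit 6 of respiratory complex I and is the one protein-coding gene on the light strand of mitochondrial DNA (chrM:13552-14070, minus strand, GRCm39). Its level was 322, 365 and 467 CPM in replicates 1 and 2 and 216, 238 and 276 CPM in replicates 3 and 4. Every library of replicates 3 and 4 was below every library of replicates 1 and 2. The log2 fold change was -0.64 ± 0.07 (SE, edgeR adjusted p = 0.000311), with 375 ± 50.3 CPM against 240 ± 20.1 CPM (mean ± SD, n = 8 each). Genes of the mitochondrial genome leaned the same way: 16 of 18 were below 0, with a median of -0.27. At the FDR alone 7 of 18 were lower, against 1.72% of all genes. The shift was uneven among the groups, with medians of -0.57 in WT_f, -0.34 in KI_f, -0.15 in KI_m and -0.07 in WT_m. In KI_m and in WT_m 6 of 18 were above 0. The 4 tested genes on the minus strand had a median of -0.41 and the 14 on the plus strand a median of -0.25. Beyond mt-Nd6, mt-Tt, a transfer RNA, was called (-0.57), and mt-Nd3, another complex I subunit, passed the FDR with -0.39. In WT_m mt-Nd3 had -0.003. It was among the 3 of 18 mitochondrial genes whose set difference varied among the 4 groups (edgeR adjusted p = 0.0645 for mt-Nd3). Counts on the mitochondrial genome without its ribosomal RNA made up 1.54% to 1.98% of each library in replicates 1 and 2 and 1.33% to 1.59% in replicates 3 and 4, a difference of -0.23 percentage points (exact permutation p = 0.00463, 0.0463 after Benjamini-Hochberg adjustment over the library measures). The respiratory chain genes of the nucleus had a median of -0.08, with 0 of 80 called. At the FDR alone 6 of the 80 were lower, against 1.72% of all genes. Which strand the deposited counts used was not stated, so reads of mt-Nd6 and of transcripts from the other strand could not be told apart.

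Cdr1 and Bc1 are transcripts that neurons express most strongly. Cdr1 lies at chrX:60227611-60229164 on the minus strand (GRCm39), opposite the long noncoding RNA Cdr1os, which gives rise to the circular RNA antisense to Cdr1. Its level was 15.6, 22.9 and 38.9 CPM in replicates 1 and 2 and 7.82, 15 and 21.7 CPM in replicates 3 and 4. The ranges overlapped across genotypes, since KI libraries were higher, but within each genotype the sets were apart: 15.6 to 19.9 CPM against 7.82 to 10.2 CPM in WT, and 25.8 to 38.9 CPM against 19.7 to 21.7 CPM in KI. The log2 fold change was -0.78 ± 0.08 (SE, edgeR adjusted p = 0.000311). Cdr1os on the other strand averaged 199 CPM in replicates 1 and 2 and 184 CPM in replicates 3 and 4, had a log2 fold change of -0.13 and did not pass (edgeR adjusted p = 0.23), and without knowledge of the strand setting reads of this pair could not be told apart.

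Bc1, a short RNA polymerase III transcript that is carried into dendrites, lies at chr7:144468199-144468374 on the plus strand (GRCm39). Its 176 bases are shown because its length and its run of A bases set it apart from the mRNAs around it.
Bc1: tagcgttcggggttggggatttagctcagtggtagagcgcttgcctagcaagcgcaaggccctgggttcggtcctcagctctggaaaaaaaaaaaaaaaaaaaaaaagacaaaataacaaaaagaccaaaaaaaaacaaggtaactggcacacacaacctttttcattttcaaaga
Its level was 41.9, 68.9 and 91.6 CPM in replicates 1 and 2 and 18.8, 23.5 and 60.8 CPM in replicates 3 and 4. One library made the overlap: replicate 4 of KI_m was at 60.8 CPM, while the other 7 libraries of replicates 3 and 4 were at 18.8 to 29.2 CPM. On the log2 scale the change was -1.28 ± 0.16 (SE, edgeR adjusted p = 0.000963), the opposite direction to the diverged 5S copies.

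Dio2 was at 16.1, 20.9 and 35.7 CPM in replicates 1 and 2 and at 10, 13 and 15.2 CPM in replicates 3 and 4, with no overlap. In brain this enzyme is known from astrocytes. Over the groups the log2 fold change was -0.86 ± 0.10 (SE, edgeR adjusted p = 0.000429). Cryab, a small heat shock protein of glia, was low but also fell, by 0.64 on the log2 scale, from 4.28, 4.84 and 6.04 CPM to 2.1, 3.19 and 4.78 CPM. Replicate 4 of KI_m at 4.78 CPM was the highest of its set, as it was for Bc1. Ermn, a cytoskeletal protein of myelinating oligodendrocytes, had -0.75 (edgeR adjusted p = 0.0902) and again its highest library of replicates 3 and 4 was replicate 4 of KI_m, at 7.24 CPM against 1.57 to 4.37 CPM in the other 7. Cd163, the haemoglobin scavenger receptor of border macrophages, went from 76.5, 97.1 and 117 CPM to 43.9, 69.9 and 93.6 CPM, a log2 fold change of -0.51 (edgeR adjusted p = 0.0477). Fkbp5, a chaperone that glucocorticoids induce, had -0.72 (edgeR adjusted p = 0.0942), and its 8 libraries of replicates 1 and 2 were spread from 40.4 to 218 CPM against 40 to 75.1 CPM. Without WT_f none of Ermn, Cd163, Fkbp5 and Csf1 was called (edgeR adjusted p of 0.215 to 0.314), and 1 of the mitochondrial genes was. In bulk samples, fewer cells of a type and less RNA per cell cannot be told apart for any of these genes.

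**Figure D3:**
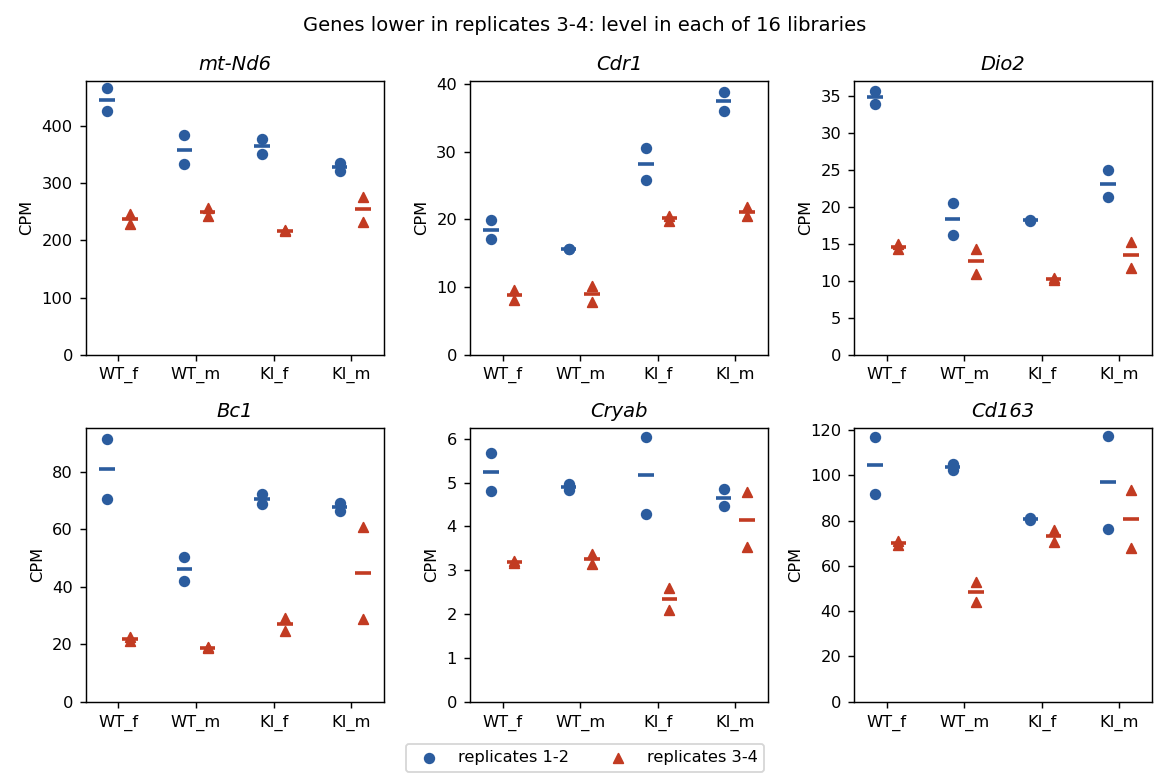
Level in CPM (vertical axes, from 0) of 6 genes called lower in replicates 3 and 4, by group (horizontal axis), with 1 point for each of the 16 libraries and a short line at the mean of the 2 libraries. In mt-Nd6 and Dio2 the sets do not overlap, and in Bc1 replicate 4 of KI_m (60.8 CPM) is apart from the other libraries of its set.

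Markers of other cell types were examined beside these genes. All 11 astrocyte markers were below 0, with a median of -0.22, and 0 were called or passed the FDR alone. Their summed level was 647 to 1322 CPM in replicates 1 and 2 and 591 to 925 CPM in replicates 3 and 4. By group the astrocyte median was -0.68 in WT_f, -0.37 in KI_f, -0.01 in KI_m and 0.26 in WT_m, where 9 of 11 were above 0. In WT_m, Dio2 had -0.53 (edgeR adjusted p = 0.22, not called) and the neuronal transcript Bc1 had -1.29 (0.0411), from 2 libraries against 2. Of 10 oligodendrocyte markers, 1 was called lower (Ermn), 9 were below 0 and the median was -0.40, with sums of 277 to 459 CPM against 243 to 439 CPM. The oligodendrocyte median was -0.78 in WT_f and -0.60 in KI_f but -0.16 in WT_m and -0.06 in KI_m. Of 9 border macrophage markers, 1 was called (Cd163), 9 were below 0 and the median was -0.17, with sums of 1294 to 1691 CPM against 1212 to 1505 CPM. The border macrophage median was -0.54 in WT_m, -0.15 in KI_m, -0.09 in WT_f and 0.02 in KI_f, where 5 of 9 were above 0. All 10 endothelial markers were below 0, with a median of -0.14, and 0 were called or passed the FDR alone, with sums of 73.1 to 264 CPM against 87.8 to 151 CPM. These endothelial values rested on WT_f, where the median was -1.07, while 9 of 10 were above 0 in WT_m and 6 of 10 in KI_f. The neuronal markers had a median of 0.03 (0 of 10 called), and they summed to 252 to 492 CPM against 297 to 430 CPM. Their part in the lower levels of Dio2, Cryab, Ermn, Cd163, Cdr1 and Bc1 was not tested. Neutrophil markers, whose cells the CD11b beads also take, summed to 8.66 to 29.6 CPM against 10.6 to 37.9 CPM. Those of T and NK cells summed to 1.74 to 6.42 CPM against 0.973 to 1.93 CPM, with 1 gene tested, and those of red blood cells were near 0, with 0 genes tested.

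Among the homeostatic microglial genes the sets were close. Of 17 homeostatic genes, 0 were called and 16 lay below 0, with a median of -0.08. P2ry12, the purine receptor that steers microglial processes, had -0.14 (edgeR adjusted p = 0.138), Cx3cr1, the fractalkine receptor, had -0.09 (0.32) and Selplg, which passed the FDR alone, had -0.16 (0.0939). Trem2, the lipid-sensing receptor of plaque-associated microglia, had 0.12 (edgeR adjusted p = 0.196) and App had -0.07 (0.478). Heat shock genes had a median of -0.18, with 0 of 18 called. Of the 18, 5 were lower at the FDR alone, against 1.72% of all genes tested. The HSP90 cochaperone Fkbp4 (-0.27) and Hsp90ab1 (-0.24) led these. The unfolded protein response list had a median of -0.12 with 0 of 15 called. Of the 15, 4 were lower at the FDR alone, against 1.72% of all genes tested. The endoplasmic reticulum chaperone Pdia4 (-0.26) was among them. Ribosomal protein genes had a median of -0.05 with 0 of 80 called, and interferon response genes 0.07 with 0 of 22 called. Of the glucocorticoid list, Fkbp5 was the 1 of 11 called. No gene passed both thresholds in the lists for hypoxia and glycolysis, circadian clock, lysosome, antigen presentation, complement, proliferation, cholesterol synthesis, nuclear long noncoding RNA, synapse, noradrenaline and purine receptors, splicing factors, clustered histones, spliceosomal and other small RNA, the sex-linked check, or for the remaining neuronal, glial, vascular and blood cell types, with list medians between -0.99 (T and NK cells) and 0.28 (mitral and tufted neurons).

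Within each genotype fewer genes passed. For WT, the calls numbered 49 (0.269%), with 33 higher and 16 lower. KI gave 47 calls (0.258%), with 43 higher and 4 lower. Both counts came from 1 fit to all 16 libraries, in which the genotypes shared the estimate of spread. Fitted alone, the 8 KI libraries gave 0 calls, and the 8 WT libraries gave more calls than in the joint fit. The calls of the genotypes shared 5 genes, which was 10.2% of the WT calls and 10.6% of the KI calls. Cdr1, mt-Nd6 and Dio2 were called lower in each. Of the WT calls, 34 of 49 had the same sign in KI, and of the KI calls 44 of 47 had the same sign in WT. Across all 18227 genes, which are not independent replicates, the set differences in WT and in KI had a Pearson r of 0.00062, given as a description. In WT, mt-Nd6 had -0.72 (edgeR adjusted p = 0.00449) and Bc1 -1.61 (0.00449), and in KI they had -0.56 (0.029) and -0.98 (0.0558). Members of the early inflammatory list passed in KI and not in WT. Tnf had a log2 fold change of 1.56 (edgeR adjusted p = 0.0237) in KI and 0.64 (0.188) in WT. Ccl3 had 1.04 in KI and 0.37 in WT, and Nfkbia 0.84 and 0.29. Of the early inflammatory list, 10 of 20 were called in KI and 0 in WT, with medians of 0.94 and 0.33. The KI count was 0 without KI_m replicate 1, KI_m replicate 2 or KI_f replicate 4 and 16 without KI_f replicate 3. The 6 tested neutrophil markers also lay on opposite sides, with a median of 0.97 in KI (6 of 6 above 0) and -0.69 in WT (0 of 6), and 0 of them were called in either genotype. Their part in the inflammatory values was not tested. The immediate early list had 5 called in KI and 1 in WT, with medians of 0.76 and 0.06. The 5S copies leaned the other way, with 3 called in WT and 0 in KI and medians of 2.42 and 0.79, as did the small nucleolar RNAs with medians of 0.78 and 0.05. Cd163 was called in WT (-0.83, edgeR adjusted p = 0.0269) and had -0.20 in KI, and Mob3c had 0.74 in WT and 0.31 in KI. The difference between the genotypes itself was not called for any gene in edgeR (smallest adjusted p = 0.259; 1587 genes at an unadjusted p under 0.05; 26 called by DESeq2 and 3 by limma-voom), so none of these contrasts between WT and KI is shown to differ by that test.

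**Figure D4:**
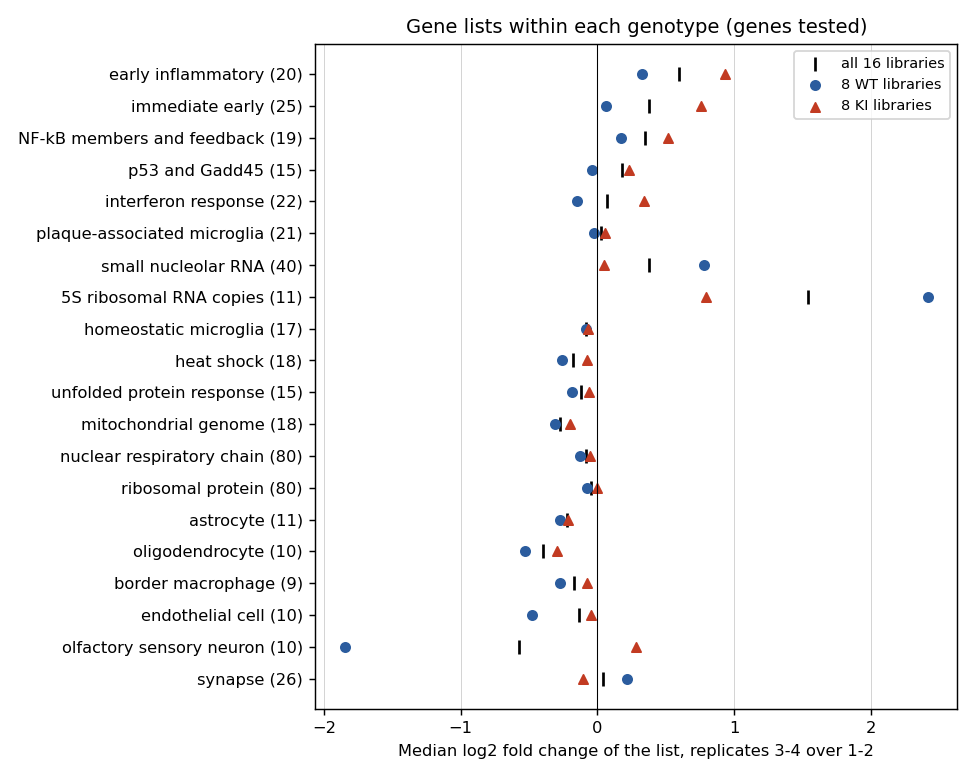
Median log2 fold change of replicates 3 and 4 over replicates 1 and 2 (horizontal axis) for 20 gene lists (vertical axis, genes tested in brackets), over all 16 libraries (black bars), the 8 WT libraries (blue circles) and the 8 KI libraries (red triangles). The early inflammatory list lies above 0 in both genotypes (0.33 in WT and 0.94 in KI), and the olfactory sensory neuron list lies on opposite sides (-1.85 in WT and 0.28 in KI).

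Split into its 4 groups, the set difference was uneven. KI_m had the most calls, 366 (2.01%), with 330 higher and 36 lower. WT_f had 271 (1.49%), split into 132 higher and 139 lower. For WT_m the count was 66 (0.362%; 41 higher, 25 lower) and for KI_f it was 17 (0.0933%; 2 higher, 15 lower). Each of these rested on 2 libraries against 2, with the spread pooled over all groups. A test of whether the set difference varied among the groups passed for 274 genes at the FDR alone (1.50% of those tested; 2590 at an unadjusted p under 0.05). Of the 130 genes called over all groups, 14 were among these 274. By list, 15 of 25 immediate early, 12 of 18 heat shock, 10 of 20 early inflammatory and 5 of 10 olfactory sensory neuron genes were among them.

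The heat shock genes Hspa1a and Hspa1b varied most by group. Hspa1b was at 4.5 and 3.24 CPM in replicates 1 and 2 of WT_f and at 292 and 349 CPM in its replicates 3 and 4, a log2 fold change of 6.31 within that group. In WT_m it went the other way, from 723 and 1254 CPM to 417 and 350 CPM, a log2 fold change of -1.37. In KI_f and KI_m it lay between 1083 and 1410 CPM in all 8 libraries, with -0.08 and 0.10. The test of a difference among groups gave an adjusted p of 5.7e-08 for Hspa1b and 2.94e-07 for Hspa1a in edgeR. As the copies are near-identical, their separate counts are uncertain. The other heat shock genes followed in part: the list median was -0.61 in WT_m and -0.39 in KI_f, where 0 of 18 genes were above 0 in each, 0.24 in KI_m and 0.07 in WT_f.

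The inflammatory genes had the widest set difference in KI_m. The early inflammatory list had a median of 1.38 in KI_m and 0.39 in KI_f, with 20 of 20 above 0 in each, 0.50 in WT_f and 0.10 in WT_m. Tnf had log2 fold changes of 2.18 in KI_m, 1.10 in WT_f, 0.97 in KI_f and 0.16 in WT_m, and these differed (edgeR adjusted p = 0.00295). Tnfaip3 had 1.61 in KI_m and -0.01 in WT_m (adjusted p of the difference among groups = 0.0476 in edgeR). Fos had 1.32 in KI_m and -0.97 in WT_f (0.0955). Interferon response genes had a median of 1.10 in KI_m with 22 of 22 above 0, and of -0.45 in KI_f with 2 of 22 above 0, but 0 of the 22 passed the test of a difference among the groups. Sertad1, by contrast, had 0.65, 0.77, 0.83 and 0.41 in KI_f, KI_m, WT_f and WT_m (adjusted p of the difference = 0.605 in edgeR). No difference among groups was called for mt-Nd6, Cdr1, Dio2, Bc1, Nfkbid or Tgif1 either (adjusted p of 0.14 to 0.371 in edgeR). This does not show that their differences were even. The unadjusted p of that edgeR test was 0.00339 to 0.00974 for mt-Nd6, Bc1, Nfkbid and Tgif1, 0.0374 for Dio2 and 0.0591 for Cdr1. Nfkbid had 1.47 in KI_m and 0.34 in KI_f, and Bc1 -1.89 in WT_f and -0.59 in KI_m.

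Olfactory sensory neuron genes, whose cells lie in the nose and send axons into the bulb, set WT_f apart. Omp was at 62.6 and 61.4 CPM in replicates 1 and 2 of WT_f and at 4.71 and 6.41 CPM in its replicates 3 and 4, a log2 fold change of -3.49. In KI_m it was at 3.91 and 8.69 CPM and then at 16.7 and 13.8 CPM, a log2 fold change of 1.27. The groups differed (edgeR adjusted p = 0.000431). Of this list, chosen after values had been seen, Stoml3, S100a5, Omp and Gng13 were called lower in WT and none in KI, with list medians of -1.85 and 0.28. The part of these cells in the other differences of WT_f was not tested.

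**Figure D5:**
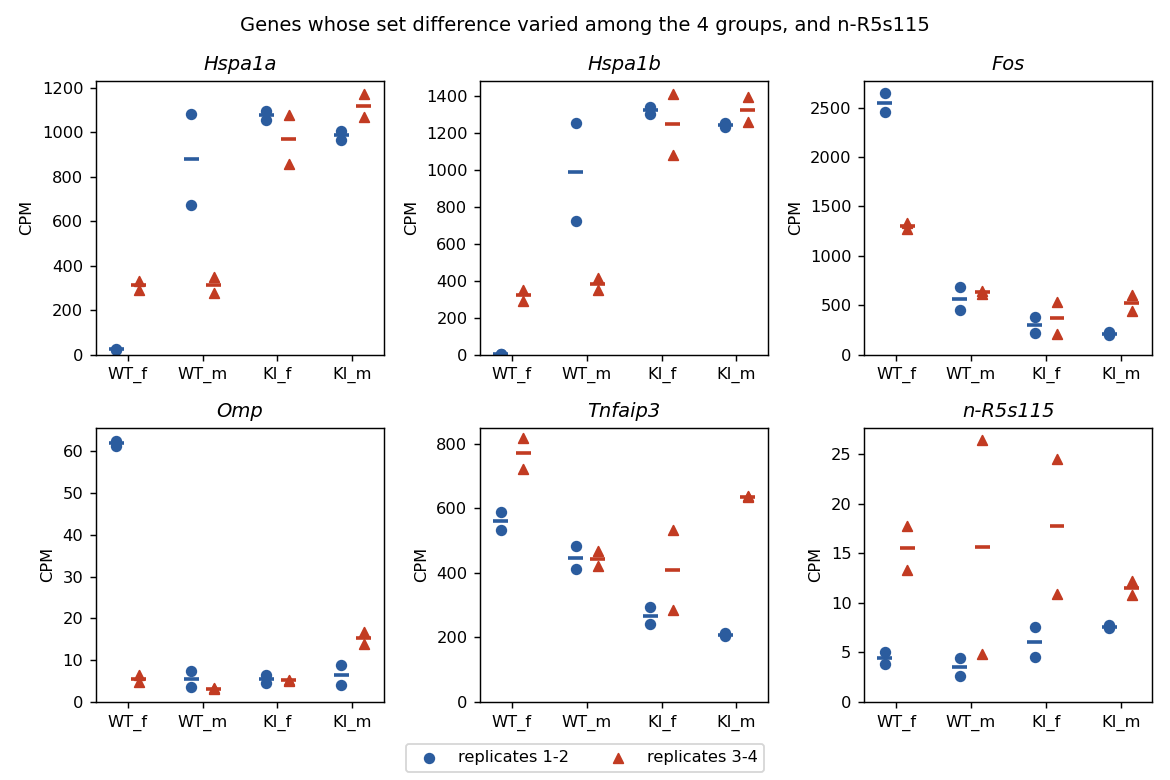
Level in CPM (vertical axes, from 0) of 6 genes by group (horizontal axis), with 1 point for each of the 16 libraries and a short line at the mean of the 2 libraries. Replicates 1 and 2 of WT_f are apart from the other libraries in Hspa1a (22.4 and 26.2 CPM), Hspa1b (4.5 and 3.24 CPM), Fos (2456 and 2648 CPM) and Omp (62.6 and 61.4 CPM).

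The number of genes called depended on which libraries entered. Without WT_f, 20 genes were called for the set (16 higher and 4 lower), of which 16 were among the 130. Without KI_f there were 43, without WT_m 95 and without KI_m 573. Of the early inflammatory list 0 of 20 were called without WT_f, 2 without KI_m, 6 without KI_f and 13 without WT_m, and leaving out single libraries left 6 to 12, the fewest without replicate 4 of KI_f. Of the 130 genes, 43 were called in all 16 fits that left out 1 library, and 38 of these were higher. In all 4 fits without a group, 8 were called. These were Sertad1, Nfkbid, Tgif1 and the predicted gene Gm3739 (6.32 against 9.77 CPM) among those higher in replicates 3 and 4, and mt-Nd6, Cdr1, Dio2 and Bc1 among those lower, and the same 8 were called in every fit that left out 1 library.

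Base composition differed between the genes that rose and those that fell. Among genes that passed the FDR alone, the median GC content of the exons was 51.6% for those higher in replicates 3 and 4 and 44.9% for those lower, against 48.4% over all genes tested. In the fifth of genes with the lowest GC content (27.5% to 43.1%), 42 were higher and 109 lower, and in the fifth with the highest (54.15% to 78.3%) 114 were higher and 14 lower. With GC content as an offset, added after the data had been seen, 98 genes were called for the set, 85 higher and 13 lower. The part of GC content in the difference between the sets was not tested further.

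The study's main contrast, KI against WT, was fitted with and without the replicate set. With the set as a term 1655 genes were called (9.08%), 842 higher and 813 lower in KI, and without it 1574, of which 1558 were shared (94.1% of the calls with the term and 99.0% of those without). The set thus gave 130 calls where genotype gave 1655, in the same 16 libraries and with each set and each genotype represented by 8. The calls overlapped: 45 of the 130 set calls (34.6%) were also called for genotype with the set term, against 9.08% of all genes tested. Of these 45 genes, 4 changed in the same direction in both contrasts, and the others rose in one and fell in the other. The reason for this overlap was not tested.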

How the data were processed

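The authors deposited a table of raw read counts per gene for the 16 libraries, not normalized. Papain-digested olfactory bulbs were passed over CD11b beads, and RNA was made into stranded SMART-Seq libraries that were pooled and sequenced in a single run. STAR counted reads on GRCm39 with GENCODE annotation and the human App sequence added; the strand counted was not given in the sources used here. Samples were grouped by genotype and the label f or m, and split into replicates 1 and 2 against 3 and 4 by the number in their titles.

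Genes that reached 5 counts in 8 or more libraries were tested with edgeR 4.0.16 (TMM scaling, quasi-likelihood fit and F test, R 4.3.3), with the 4 groups and the set as terms, or 1 set effect per genotype or per group. KI against WT was fitted with genotype and the label f or m as terms, with or without the set. A call needed an FDR (Benjamini-Hochberg) under 0.1 together with a change of more than 0.5 on the log2 scale in either direction, as in the study's methods. The SE was taken from the size of the change and the square root of F. CPM used TMM-scaled totals, and log2 CPM a prior count of 2. The scripts were tested on simulated data. Counts allow a floor of 3 counts per library, 0.166 to 0.331 CPM, for counting error only. DESeq2 1.42.0 and limma-voom (limma 3.58.1) were alternatives, beside no count filter, library totals, leaving out each library or group, and a replicate block. Annotation was matched from GENCODE on GRCm39 (97.7% of tested genes), with promoters from RefSeq on GRCm38.p6. Genes in tested rows held 99.86% of all counts.

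The replicate sets, gene lists and tests were chosen with earlier results of these data known. The lists of 5S copies, olfactory sensory neuron genes and NF-kB members, the test among the 4 groups, the pair test, the GC offset and the fits without a group were added after values had been seen. Genes were named by rule: the 10 higher and 10 lower calls of smallest p with an established symbol, the 3 higher and 3 lower of smallest p of any kind, the 2 genes of smallest p in each list, the 3 higher and 3 lower of smallest p within each genotype, and a short fixed list (Fos, Hspa1a, Hspa1b, Il1b, P2ry12, Cx3cr1, Trem2, App, Xist, Ddx3y). Other named genes, among them further list members, Gm3739 and Omp, were named after their values had been seen. Replicate numbers did not pair libraries: deviations from the group means of libraries with the same number in different groups had a mean correlation of 0.0133 over 24 pairs. Some sequences and genes are not reported here.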

Additional observations from a re-analysis of the deposited data

Results flagged for a closer look

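Dixon's criterion, which chance meets in about 1 of 20 groups, was applied to 160 measures within a group of 4 libraries, and 6 had an extreme library. WT_f replicate 2 had 23650 genes detected, with its nearest neighbour at 25550. WT_m replicate 2 had a score of -27.88 on the first principal component of log2 CPM, with its nearest neighbour at -1.56. For Ccl4, KI_f replicate 4 was at 334.3 CPM, with the next library at 195.9 CPM. WT_m replicate 3 was at 94.25 CPM for Snord15a (next 60.99 CPM), at 26.45 CPM for n-R5s115 (next 4.774 CPM) and at 122.3 CPM for the summed 5S copies (next 15.64 CPM).

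The set difference varied among the 4 groups in 274 genes in edgeR's quasi-likelihood test. Among the genes named, the adjusted p of that test was 5.7e-08 for Hspa1b, 2.94e-07 for Hspa1a, 0.000431 for Omp, 0.00295 for Tnf, 0.0476 for Tnfaip3 and 0.0955 for Fos.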

How the results depend on the processing

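The count of genes called for the set overall (130) was 60 at an FDR of 0.05, 671 at the FDR alone, 282 with no count filter, 55 with DESeq2, 0 with glmTreat (a test against the fold threshold itself), 77 among protein-coding genes, 53 with no group term, 43 without KI_f, 573 without KI_m and 20 without WT_f. Leaving out single libraries gave 80 (without WT_f replicate 2 or KI_f replicate 4) to 222 (without KI_m replicate 3). In WT (49) the same changes gave 27, 109, 822, 180 and 0, with 78 for library totals (63 higher and 15 lower against 33 and 16), 76 for the WT libraries alone, 10 without WT_f, 167 without WT_m and 13 to 209 without single libraries. In KI (47) they gave 21, 75, 319, 145 and 0, with 26 for limma-voom, 26 for robust fitting, 0 for the KI libraries alone, 351 without KI_f, 6 without KI_m and 0 to 296 without single libraries, where 0 came without KI_m replicate 1 or KI_f replicate 4 and 296 without KI_f replicate 3. The difference between genotypes (0) was 703 with no filter, 26 with DESeq2, 3 with limma-voom and 0 to 233 without single libraries. KI against WT (1655) was 3020 at the FDR alone, 301 with glmTreat, 541 among protein-coding genes and 1170 to 2387 without single libraries. The test among groups (274) gave 55 with library totals and 34 to 969 without single libraries. With the replicate block, which pairs libraries by number, the set overall gave 105 calls, WT 4, KI 0, the difference 0 and KI against WT 1562; 8 of 24 same-number pairs correlated over 0.1 and 8 libraries correlated best with their own number.

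The log2 fold change of Hspa1a was -0.47 without WT_f, against 0.33 with all libraries, and without single libraries ranged from -0.03901 to 0.6172. That of Hspa1b was -0.44 without WT_f and that of Fos -0.17 without KI_m. Differences in library measures without single libraries were -66.25 to 407.8 genes detected, -379.6 to 103.4 genes with at least 5 counts, -1.145 to 0.3789 points of rRNA, -0.9038 to 0.4683 points in the top 10 genes, 0.08517 to 0.1334 points of small RNA, 10.97 to 15.46 in the second component and -0.2559 to -0.2107 points of mitochondrial counts. The cause was not tested. With 2 libraries per group and set, counts within a group rest on the pooled spread.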
